A study of Mus musculus with 2 samples.

Results

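Collagen chain genes were taken as the genes whose symbol is Col, a number, a and a number, from probe sets that the platform annotation assigns to exactly 1 gene. This gave 42 genes and 82 probe sets, of 18193 genes and 45101 probe sets on the array. They were grouped as 11 fibrillar, 6 basement membrane, 5 beaded, 9 fibril-associated and 4 transmembrane chains, and 7 others lay outside these 5 classes. Gene expression was measured on Affymetrix mouse genome arrays in wild type C57Bl6 mouse embryos at E12.5, with no treatment named. A free-text label of both samples instead describes much earlier embryos, before the embryo's own genes are switched on, and E12.5 was used because the other labels give it. One group was mesothelial cells, a sheet of flat cells on the liver surface, sorted by FACS for the surface protein podoplanin (Pdpn) after trypsin-EDTA digestion of the liver. The other was liver cells of the same age and strain, for which neither the preparation nor any removal of Pdpn+ cells is stated in the labels. RNA was amplified from 20 ng and put on 1 array for each group, and how many embryos were pooled is not stated. No difference could therefore be tested, and each value describes these 2 arrays.

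Collagens are secreted or membrane-bound proteins in which chains with a glycine at regular steps wind around each other into a rope-like helix. Fibrillar chains build the cross-striated fibrils of connective tissue, type IV chains form the network of basement membranes, type VI chains form beaded filaments beside cells, fibril-associated chains sit on fibril surfaces, and transmembrane chains stay in the cell membrane. Most collagens are assembled from chains of several genes, so partner chains are described together here. In the fetal liver, collagen is laid down beneath the mesothelium and around vessels and sinusoids.

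Levels are given as linear intensities of a probe set, and a difference is the mesothelial log2 intensity minus the liver one. The median intensity of all probe sets was 65.8 in mesothelial and 42.3 in liver cells, and these medians served as the intensity floor of each array. Of 27 control probe sets for bacterial transcripts whose RNA was not added, going by their low values, the highest read 16.2 and 10.5, which is called the control level. Where the lower value of a gene was at or under that level, the fold is against the control level and is given as at least N-fold. The median difference over all genes was 0.66. Centring both arrays on the median of all probe sets lowers every difference by 0.64, so one between 0 and 0.64 turns its sign. The pooled SD of differences between probe sets of a gene was 0.70. Of 17 mesothelium markers, 15 reached the floor and a 2-fold higher value on the mesothelial array. Upk3b, a membrane protein of mesothelium, read 3053 against 54.4, and Pdpn, the gene of the sort, read 3877 and was 38.8-fold higher, which checks the labels only. The hepatocyte gene Alb read 15683 against 12832, and of 12 hepatoblast markers 3 were called higher in mesothelial cells. Blood cell markers went both ways, with 9 of 9 megakaryocyte markers called higher in mesothelial cells and 4 of 10 erythroid markers called higher in liver cells. Of 7 neural crest and Schwann cell markers, 2 were called higher in mesothelial cells. These counts stand beside 30.0% of all genes called higher and 2.53% lower, and the hepatoblast and neural crest shares were below the former.

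Collagen chain genes read higher in mesothelial cells in each of the 5 classes, by their medians. Of the 42 genes, 28 were at or above the floor and at least 2-fold higher in mesothelial cells, a share of 66.7%, and 0 passed the same rule in the other direction. The same rule called 30.0% of all 18193 genes higher and 2.53% lower. At 4-fold, 25 of the 42 collagen genes were called, against 10.5% of all genes. The median difference was 2.69 over the 42 genes, which is 2.02 above that of all genes, with members from -0.91 to 5.50. The highest, Col4a6, is 5.21 when low values are set to the control level, below Col6a1 and Col6a2. After each array was centred on its median, 28 collagen genes were still called higher and 1, Col19a1, lower, where 15.8% of all genes were called higher and 6.11% lower. The 12 genes under the floor could not be called by this rule whatever their difference.

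**Figure D1:**
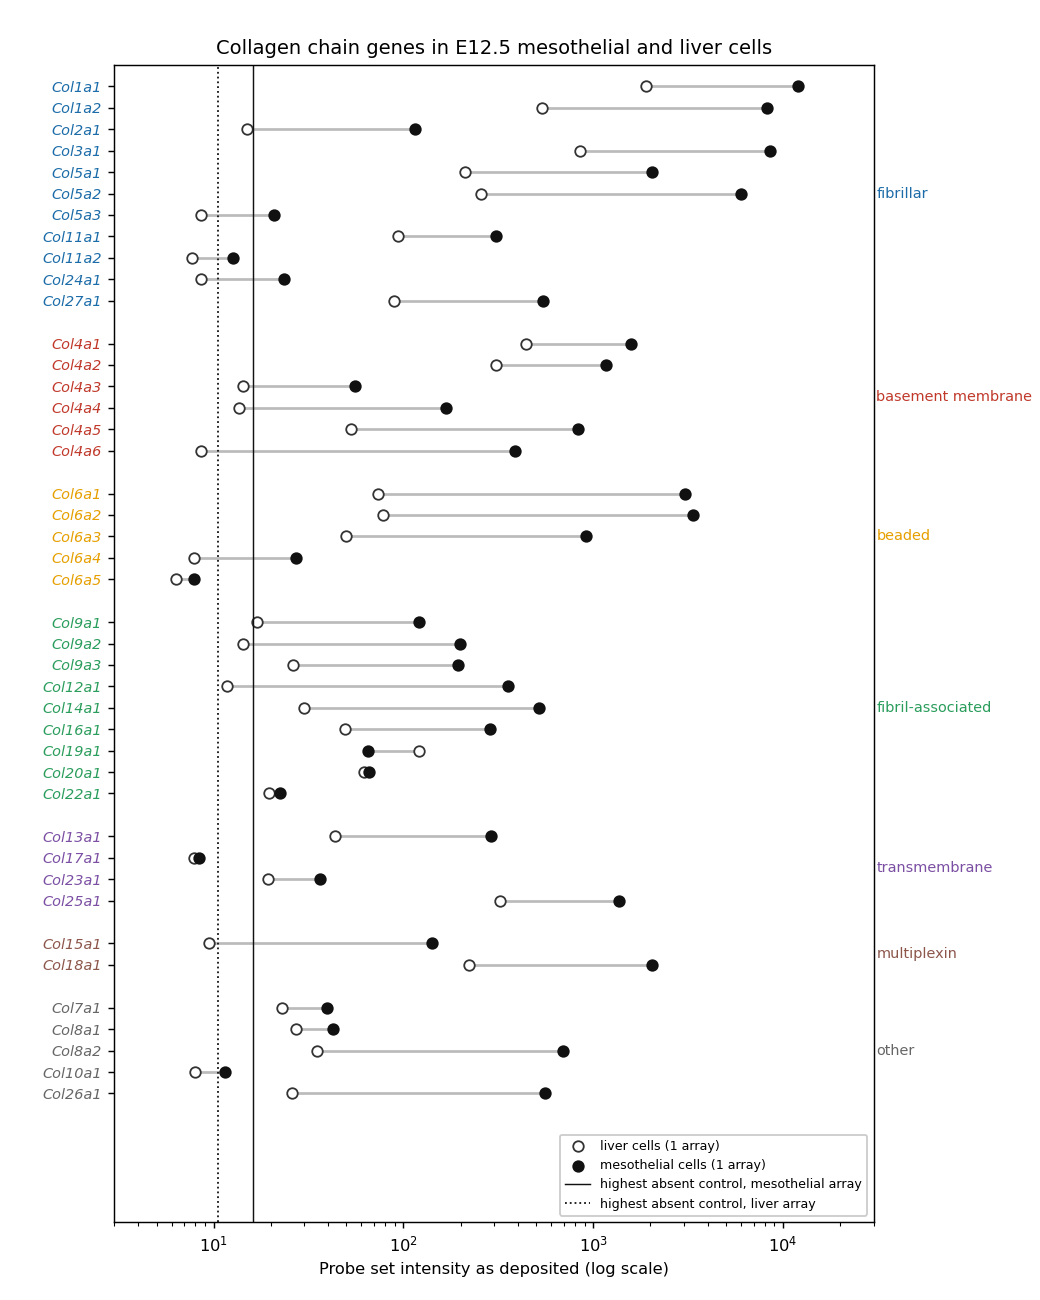
Intensity of each of the 42 collagen genes on the mesothelial array (filled) and the liver array (open), log scale, from the probe set used for the gene; vertical lines mark the highest absent control of each array, 16.2 and 10.5. All genes but Col19a1 read higher in mesothelial cells, and the signs of 9 genes that were not called turned under another scaling of the arrays.

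Under 4 other scalings of the arrays (median, reference genes, quantile and hybridisation controls) all 28 called genes kept their sign, and 25 stayed at a difference of at least 1 under each of them. The exceptions were Col11a1, Col4a1 and Col4a2, whose lowest values were 0.63, 0.77 and 0.84. Of the 14 genes not called, 9 turned sign under some scaling, namely Col11a2, Col6a5, Col20a1, Col22a1, Col17a1, Col23a1, Col7a1, Col8a1 and Col10a1. Col11a2, Col6a5, Col17a1 and Col10a1 were at or under the control level on both arrays, so they have no fold. RNA of a cell type can read higher because its cells are more frequent or because each holds more of it, and these cannot be told apart here. Col6a2 and Col6a1 ranked 9 and 12 by difference among the 11905 genes at or above the floor. That ranking counts genes whose liver value was under the control level, Col4a6 among them. The rank of Col4a6 itself is not given for that reason.

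**Figure D2:**
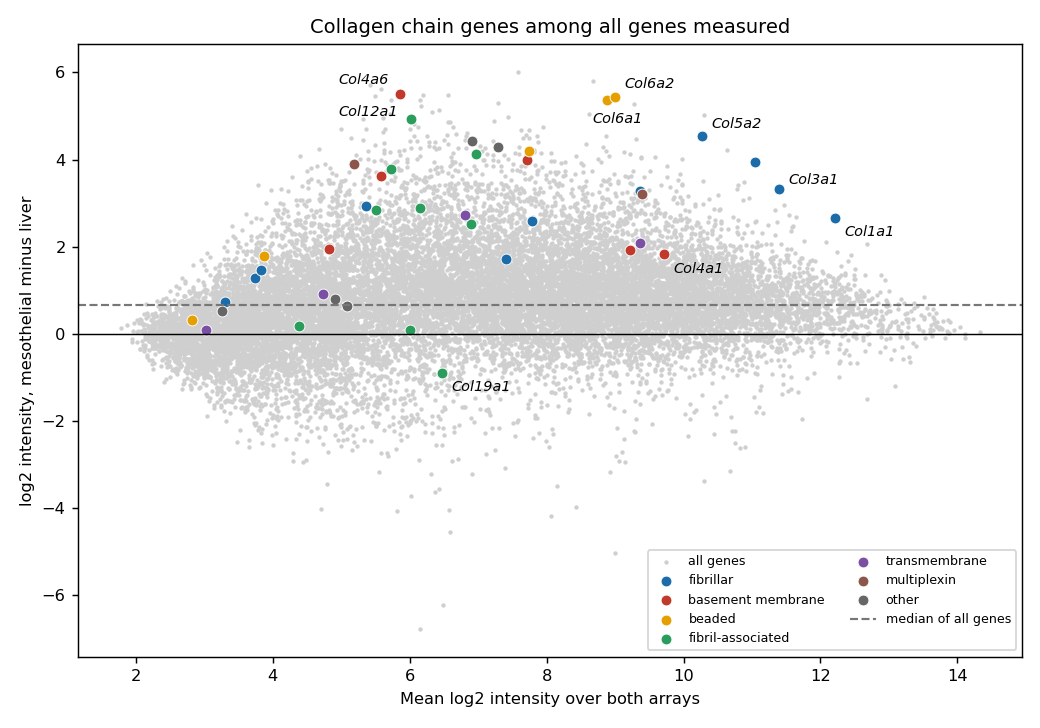
Difference (log2 intensity, mesothelial minus liver) against mean log2 intensity over both arrays, for all 18193 genes (grey) and the 42 collagen genes coloured by class. Col4a6, Col6a1 and Col6a2 lie at the upper edge of the cloud, Col4a1 lies lower at 1.84, and Col19a1 lies at -0.91; the dashed line is the median of all genes, 0.66.

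Type I and type III collagen are the main fibril formers of soft connective tissue, and type V chains start and limit the width of those fibrils. Col1a1, which encodes the major type I chain, read 11942.5 in mesothelial and 1891 in liver cells, 6.32-fold higher. Col1a2, its partner, read 8235 against 539.7, 15.3-fold higher. The type I pair thus lay 1.27 apart in log2 difference, but the Col1a1 probe sets themselves differed, at 2.66 and 4.24, and the 3 of Col1a2 ran from 3.28 to 3.93. Col3a1, the type III chain, read 8518 against 852.4, 9.99-fold higher, and its 2 probe sets gave an SD of 0.06.

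The type V chains Col5a1 and Col5a2 read 2039 against 211.8 and 5998 against 256.3, 9.63-fold and 23.4-fold higher. Col5a2 had the highest difference of the fibrillar class, 4.55, and its 2 probe sets gave an SD of 0.05. The 3 probe sets of Col5a1 ran from 1.97 to 3.42, an SD of 0.80. The third type V chain, Col5a3, lay under the floor at 20.8 against 8.6, with the liver value at the control level. In RefSeq for GRCm38.p6, Col3a1 and Col5a2 are neighbouring genes on chromosome 1, and their differences were 3.32 and 4.55.

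Col27a1, a fibrillar chain of cartilage and other developing tissues, read 540.8 against 89.3, 6.06-fold higher, and its 2 probe sets gave an SD of 0.13. Col24a1, a chain related to it, lay under the floor at 23.6 against 8.6. Col11a1, a chain that limits fibril width in cartilage and elsewhere, read 306.7 against 93.8, a difference of 1.71, while its other probe set gave 4.46. Its partner Col11a2 was at control level on both arrays, at 12.7 against 7.7. Col2a1, the main cartilage fibril chain, read 114.4 against 14.9, 7.68-fold higher. Over all 11 fibrillar genes, 8 were called higher, beside 30.0% of all genes, and the median was 2.66.

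The promoters of Col1a2 and Col3a1 are shown, and every probe set of these 2 genes was at least 4-fold higher. That also held for Col27a1, which is not shown, and for Col1a1, Col2a1 and Col5a2, for which no promoter sequence was found. The stretches are the 250 bases before the RefSeq start in GRCm38.p6, 5′ to 3′ on the strand of the gene, in lower case. Capitals mark matches on either strand to 3 motifs, which are TATAAA with its reverse complement TTTATA, the box CCAAT with its reverse complement ATTGG, and the GC box GGGCGG with its reverse complement CCGCCC. Col1a2 lies at chr6:4505368-4505617 on the plus strand and Col3a1 at chr1:45311288-45311537 on the plus strand.
Col1a2: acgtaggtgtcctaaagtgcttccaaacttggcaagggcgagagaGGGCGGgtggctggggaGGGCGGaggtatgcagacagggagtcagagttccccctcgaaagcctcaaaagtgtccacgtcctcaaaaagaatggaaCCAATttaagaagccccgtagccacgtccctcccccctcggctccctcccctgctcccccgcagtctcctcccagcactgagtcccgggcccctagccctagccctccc
Col3a1: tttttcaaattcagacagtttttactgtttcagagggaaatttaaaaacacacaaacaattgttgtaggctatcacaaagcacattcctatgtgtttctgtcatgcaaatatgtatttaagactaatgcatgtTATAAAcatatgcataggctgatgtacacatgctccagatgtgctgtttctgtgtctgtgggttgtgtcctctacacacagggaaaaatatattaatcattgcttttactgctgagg
Col1a2 holds 1 CCAAT, whose first base lies 109 bases before the start, and 2 GGGCGG, and Col3a1 holds 1 TATAAA. Windows were found for 33 of the 42 genes, 36 windows in all. CCAAT stood in 36.1% of them against 33.8% of all 32851 windows, TATAAA in 13.9% against 12.4%, and GGGCGG in 58.3% against 32.7%. These shares describe letters in these windows only.

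Type IV collagen is the scaffold of basement membranes, and its 6 chains assemble in fixed combinations: a1 with a2 in nearly all tissues, a3 with a4 and a5 in a few such as the kidney filter, and a5 with a6 in others. Col4a1 read 1590.0 in mesothelial and 443.6 in liver cells, and Col4a2 1161 against 308.1, 3.58-fold and 3.77-fold higher. Their differences lay 0.07 apart, less than the 0.70 SD between probe sets of one gene, and in RefSeq their 300-base promoter windows on chromosome 8 overlap by 78 bases on opposite strands.

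Of the restricted chains, Col4a5 read 834.9 against 52.8, 15.8-fold higher, with its other probe set at 2.60. Col4a6 read 388.1 against 8.6, at the control level in liver cells, and was at least 37.0-fold higher. Its other probe set read 114.8 against 6.8, also at the control level in liver cells, and was at least 10.9-fold higher. Both probe sets of Col4a6, at their bounds, and both of Col4a5 thus lay above the differences of Col4a1 and Col4a2. The lower Col4a5 probe set, at 2.60, still lay within the 0.70 SD of Col4a2, at 1.91. Col4a4 read 168.1 against 13.6, 12.4-fold higher, but its 3 probe sets ran from 0.37 to 3.63. Col4a3 lay under the floor at 55.5 against 14.3, and its difference of 1.96 lay within the 0.70 SD of those of Col4a1 and Col4a2. Of the 6 genes, 5 were called higher, beside 30.0% of all genes, and the median was 2.79.

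The upstream stretches of Col4a5 and Col4a6, neighbours on chromosome X that are transcribed away from each other, are shown because their probe sets read higher together. Col4a5 lies at chrX:141475169-141475418 on the plus strand and Col4a6 at chrX:141474077-141474326 on the minus strand, with capitals as above.
Col4a5: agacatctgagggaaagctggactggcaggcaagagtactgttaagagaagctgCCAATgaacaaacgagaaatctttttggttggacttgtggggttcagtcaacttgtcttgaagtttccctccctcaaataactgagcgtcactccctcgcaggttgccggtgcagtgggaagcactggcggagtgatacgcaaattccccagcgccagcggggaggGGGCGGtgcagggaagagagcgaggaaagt
Col4a6: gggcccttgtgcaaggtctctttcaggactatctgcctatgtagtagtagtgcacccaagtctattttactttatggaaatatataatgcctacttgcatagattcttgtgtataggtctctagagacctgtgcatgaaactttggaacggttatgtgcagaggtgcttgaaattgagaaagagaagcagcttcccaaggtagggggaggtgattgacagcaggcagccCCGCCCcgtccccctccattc
Each holds 1 GGGCGG or its reverse, 30 bases before the start for Col4a5 and 21 for Col4a6 by its first base, and Col4a5 also holds 1 CCAAT.

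Type XV and type XVIII collagen are basement membrane zone proteins of the multiplexin group, and type XVIII is the source of the fragment endostatin. Col18a1 read 2048 in mesothelial and 222.1 in liver cells, 9.22-fold higher, and its 2 probe sets gave an SD of 0.31. Col15a1 read 140.6 against 9.5, at the control level in liver cells, and was at least 13.4-fold higher. Endothelial cells also make type IV, XV and XVIII chains. Of 14 endothelium markers, 4 were called higher in the sorted cells and 0 lower. That is 28.6% called higher, where 30.0% of all genes were called higher and 2.53% lower. The summed intensity of these markers was 3908 against 2066, 1.89-fold, and their median difference of 0.76 lay 0.09 above that of all genes. After median centring 1 was called higher (7.14%) and 1 lower, where 15.8% of all genes were called higher and 6.11% lower. Stab2 and Tek, receptors of sinusoidal and general endothelium, were 3.45-fold and 2.97-fold higher, and the sialomucin gene Emcn read 50.7 against 68.7. The part of endothelial RNA in these collagen values was not tested.

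Type VI collagen, which links cells to the surrounding fibrils as beaded filaments, had the highest median of the classes at 4.19. Its core chains Col6a1 and Col6a2 read 3032 against 73.1 and 3363 against 78.0, 41.5-fold and 43.1-fold higher. Col6a2 had an SD of 0.04 between 2 probe sets, and Col6a1 had 1 probe set. The third core chain, Col6a3, read 913.8 against 50, 18.3-fold higher. The 3 core chains lay within 1.24 of each other in log2 difference. Neither measured alternative chain reached the floor, and a further one, Col6a6, was not measured by a probe set used here. Col6a4 lay under the floor at 27.1 against 7.9, and Col6a5 read 7.9 against 6.3, at control level on both arrays. Of the 5 genes, 3 were called higher, beside 30.0% of all genes, and 2 lay under the floor.

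Col6a1 and Col6a2 are neighbours on chromosome 10, and their upstream stretches are shown because they had the highest differences of the class. Col6a1 lies at chr10:76726045-76726294 and Col6a2 at chr10:76623405-76623654, both on the minus strand, and Col6a2 has a second RefSeq start.
Col6a1: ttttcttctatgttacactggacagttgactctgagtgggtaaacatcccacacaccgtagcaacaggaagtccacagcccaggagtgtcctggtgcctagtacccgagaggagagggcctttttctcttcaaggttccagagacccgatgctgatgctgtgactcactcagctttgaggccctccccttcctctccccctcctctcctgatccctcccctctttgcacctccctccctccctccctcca
Col6a2: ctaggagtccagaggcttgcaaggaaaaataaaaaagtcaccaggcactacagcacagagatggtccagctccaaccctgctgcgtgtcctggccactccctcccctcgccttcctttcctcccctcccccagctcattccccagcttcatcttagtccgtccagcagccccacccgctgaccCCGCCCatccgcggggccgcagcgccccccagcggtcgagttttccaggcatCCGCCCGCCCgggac
Col6a2 holds 3 matches to GGGCGG or its reverse, of which 2 overlap, and Col6a1 holds 0 matches to the 3 motifs.

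**Figure D3:**
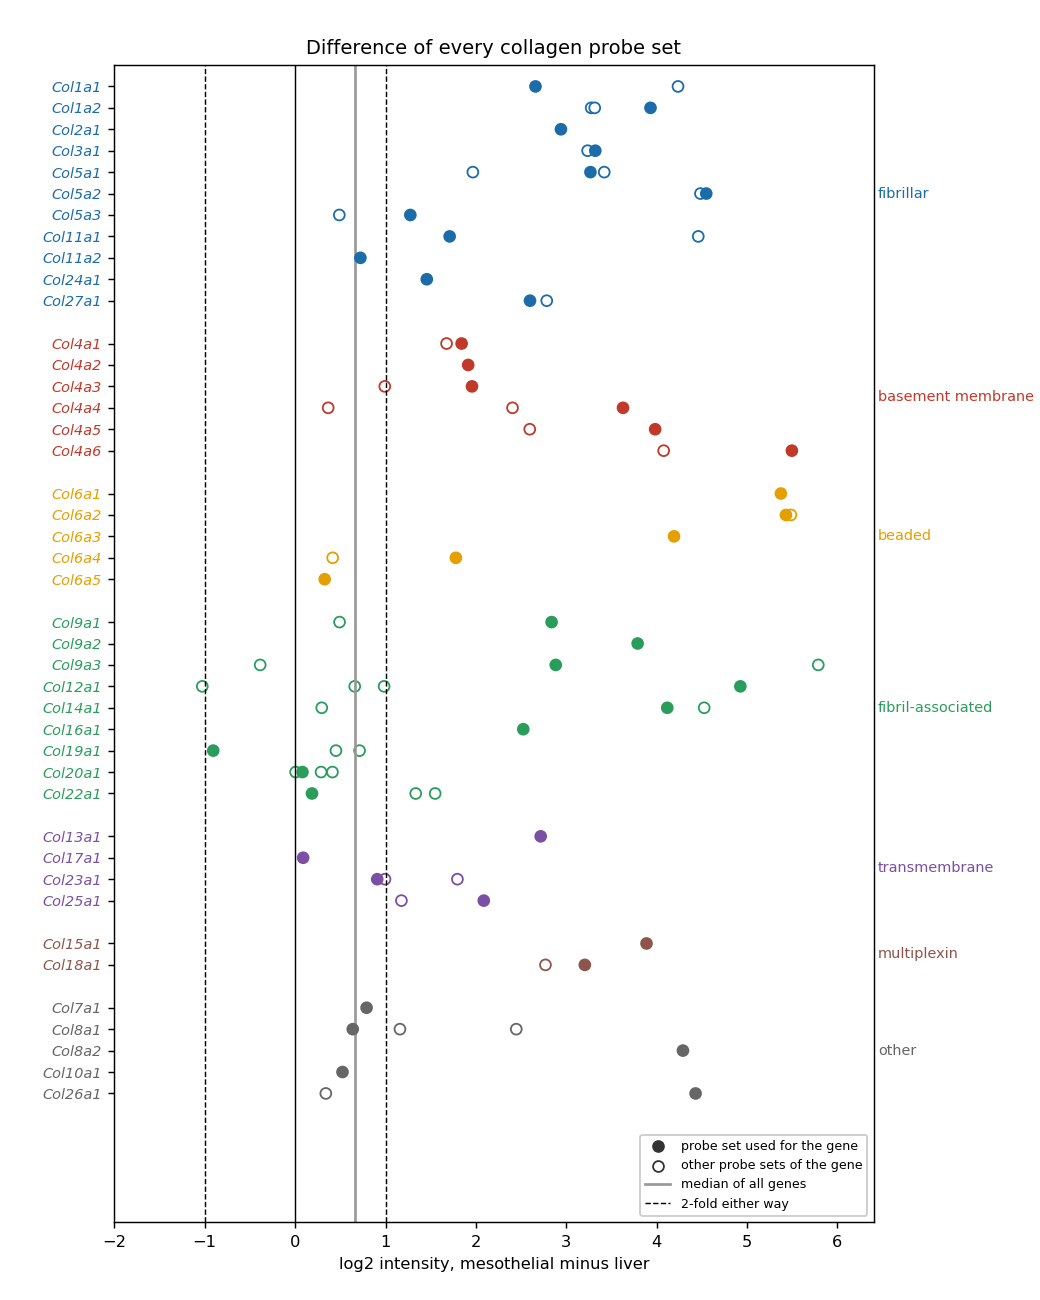
Difference of each of the 82 collagen probe sets (log2 intensity, mesothelial minus liver), with the probe set used for the gene filled and the others open; dashed lines mark 2-fold either way and the grey line the median of all genes, 0.66. The 2 probe sets of Col6a2, Col3a1 and Col5a2 lie close together, those of Col12a1 lie far apart, and 3 of the 82 lie below 0, those of Col9a3 and Col12a1 from probe sets at or near the control level.

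Fibril-associated chains ran from -0.91 to 4.93. Type XII and type XIV collagen coat type I fibrils, and Col12a1 read 355.6 against 11.7, 30.4-fold higher, while Col14a1 read 520.5 against 30.0, 17.4-fold higher. Of the other 3 probe sets of Col12a1, 1 differed by 0.66, and the others read 9.1 against 4.6 and 5.2 against 10.6, at or near the control level on both arrays, and give no difference. Those of Col14a1 read 221.1 against 9.6, at least 21.1-fold higher, and 36.9 against 30.1, a difference of 0.29. Col16a1, found near fibrils and basement membranes, read 284.7 against 49.5, 5.75-fold higher, from 1 probe set.

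The type IX chains, which decorate type II fibrils in cartilage, were also called higher. Col9a1 read 121.5 against 17.0, Col9a2 197.7 against 14.3 and Col9a3 193.3 against 26.2, which is 7.15-fold, 13.8-fold and 7.38-fold higher. The differences of these partner chains lay within 0.95 of each other. The other probe set of Col9a1 read 20.8 against 14.8, a difference of 0.49. One other probe set of Col9a3 read 353.6 against 6.4, at the control level in liver cells and at least 33.7-fold higher, and the other was at control level on both arrays and gives no difference.

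Cartilage collagens were read beside 10 chondrocyte markers other than collagens. Of these, 3 were called higher and 1 lower in the sorted cells, and their summed intensity was 1222 against 1285, 0.95-fold, beside the 30.0% of all genes called higher. Sox6 alone turned that sum, and without it, a choice made after seeing the data, the sums were 777.1 against 301.1, 2.58-fold higher in mesothelial cells. Most of the 777.1 came from the 3 genes called higher, Hapln1, Sox5 and Sox9, at 388.1, 155.0 and 147.0. The sum without Sox6 therefore repeats those calls and does not describe the list. Sox5 and Sox9, transcription factors of cartilage and other tissues, were 4.12-fold and 2.83-fold higher, though 4 of the 7 probe sets of Sox5 and 2 of the 3 of Sox9 were at control level in mesothelial cells, and Hapln1, a matrix link protein, 2.76-fold, while Sox6, which erythroid cells also express, was 2.21-fold higher in liver cells. The cartilage matrix genes Comp and Cnmd were at control level on both arrays, and Acan and Matn3 were at control level in mesothelial cells. Matn1 read 19.1 against 7.0 and Snorc 16.4 against 12.0, just above the mesothelial control level of 16.2. These 6 matrix genes are named outside the rule for other genes, after their values were seen. Col2a1 and the 3 type IX chains were at or above the floor. Whether cartilage cells had a part in these values was not tested.

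The other fibril-associated chains were not called. Col19a1, a minor chain of muscle and brain, was the only collagen gene with a difference below 0, at 64.7 against 121.3 or -0.91. It was at least 2-fold lower under median, reference gene, quantile and hybridisation control scaling, but its other 2 probe sets differed by 0.71 and 0.45. Col20a1 read 65.9 against 62.3, and its 4 probe sets all differed by less than 0.42, from 0.01 to 0.41. Col22a1, a chain of tissue junctions such as that of muscle and tendon, read 22.3 against 19.6, under the floor. Its other probe sets read 17.9 against 7.1, at least 1.70-fold higher, and 27.5 against 9.4, at least 2.62-fold higher. In RefSeq, Col19a1 is the neighbour of Col9a1 on chromosome 1, with differences of -0.91 and 2.84. Of the 9 genes in the class, 6 were called higher, beside 30.0% of all genes, and the median was 2.84.

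Transmembrane chains had the lowest median of the 5 classes, 1.5. Of the 4 genes, 2 were called higher, beside 30.0% of all genes. Col13a1, a chain of cell junctions including that of nerve and muscle, read 287.9 against 43.8, 6.57-fold higher. Col25a1, which is made by muscle and nerve cells, read 1363 against 320.8, 4.25-fold higher, with its other probe set at 1.18. Col23a1 read 36.4 against 19.4, under the floor, and Col17a1, a part of the hemidesmosome of skin epithelium, read 8.4 against 7.9, at control level on both arrays.

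Skeletal muscle also makes several of these chains, and muscle genes read higher in the sorted cells. Of 14 striated muscle markers, 11 were called higher in mesothelial cells and 1 in liver cells, with a median of 2.12 and a summed intensity of 4691 against 933.7, 5.02-fold. The troponin gene Tnnt2 was 19.1-fold higher, and the muscle precursor genes Pax7 and Myf5 13.6-fold and 9.27-fold, while Acta1, skeletal actin, was 2.97-fold higher in liver cells. The differences of the Tnnt2 probe sets ran from 1.09 to 4.26 and those of Pax7 from 1.36 to 3.76. Markers of stellate and submesothelial mesenchyme, collagen-producing cells under the liver surface and along sinusoids, were called higher in 13 of 14 cases, their median was 2.21 and their summed intensity 9419 against 1834, 5.14-fold. Hand2, Colec11 and Pdgfra, genes of liver mesenchyme, were 19.4-fold, 9.87-fold and 9.03-fold higher, and Rgs5 read 144.1 against 76.3. The differences of the Hand2 probe sets ran from 1.02 to 4.28, those of Colec11 from 1.84 to 3.30 and those of Pdgfra from 2.79 to 3.19. Of 8 bone and tendon markers, 4 were called higher and 1 lower, with a summed intensity of 589.0 against 315.5. Of all genes, 30.0% were called higher. After median centring, where 15.8% of all genes were called higher, 8 of 14 muscle, 11 of 14 stellate and 1 of 8 bone and tendon markers were called higher. The part of these cells in the collagen values was not tested.

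Among the chains outside the 5 classes and the multiplexins, 2 were called. Col8a2, a chain of the short network collagens of vessels and the cornea, read 688.9 against 35.2, 19.6-fold higher, whereas its partner Col8a1 lay under the floor at 42.3 against 27.2. Its other probe sets read 27.7 against 12.4, 2.23-fold higher, and 32.7 against 6.0, at least 3.11-fold higher. Col26a1 read 556.2 against 25.8, 21.6-fold higher, and its other probe set read 10.5 against 8.3, at the control level on both arrays. Col7a1, the anchoring fibril chain of skin, lay under the floor at 39.6 against 22.9, and Col10a1, the chain of hypertrophic cartilage, read 11.5 against 8.0, at control level on both arrays.

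Several probe sets were available for 27 of the 42 genes, and 19 of these 27 were called higher. In 13 of the 19, every probe set was at least 2-fold higher. In the other 6 some probe set was under 2-fold, namely Col4a4, Col9a1, Col9a3, Col12a1, Col14a1 and Col26a1. The SD between probe sets was above 1 in 9 of the 27 genes, and it was 3.09 for Col9a3, 2.89 for Col26a1 and 2.52 for Col12a1, each of which had at least 1 probe set at or near the control level on both arrays. Taking the lowest probe set of each gene, an alternative chosen after seeing the data, left 21 genes called, a median of 1.57 over all 42 and a median of 0.19 in the fibril-associated class. The same choice called 2674 of all 18193 genes higher, and their median of 0.27 lay above that of the fibril-associated class. Of the 82 probe sets, 55 were at least 2-fold higher with no floor, against 32.2% of all probe sets with 1 gene symbol, and 3 were below 0, against 24.3%. Those of Col9a3 and Col12a1 among the 3 were at or near the control level on both arrays, so only that of Col19a1 was a measured difference. The 3′ to 5′ intensity ratio of the control probe sets for Tfrc was 27.3 in mesothelial and 7.23 in liver cells, for Actb 2.30 and 1.49, and for Gapdh 2.15 and 1.95. The part of these differences in how probe sets of one gene disagree was not tested.

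**Figure D4:**
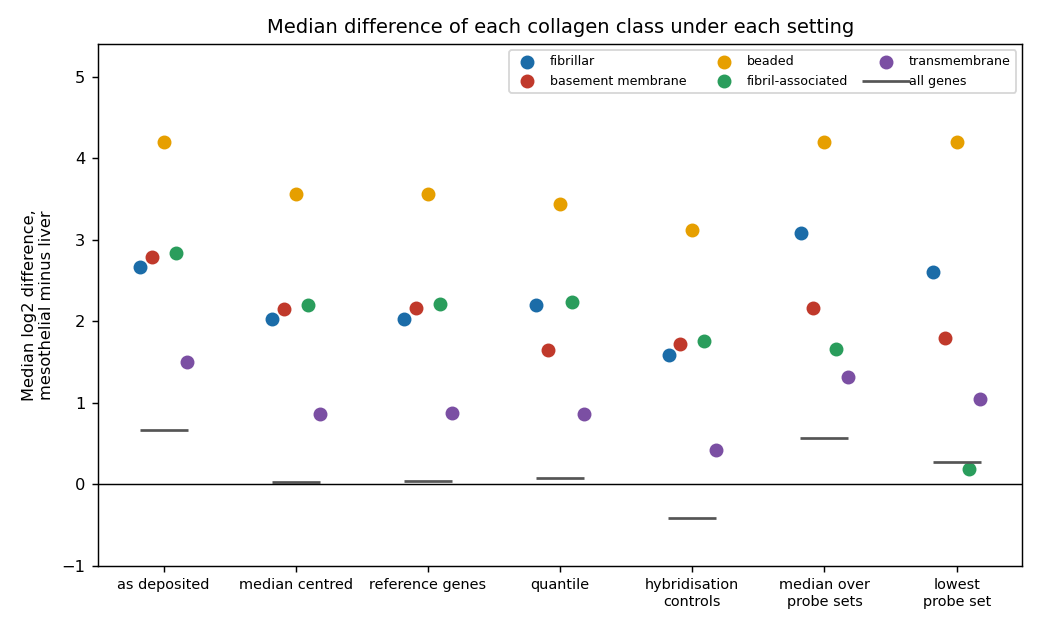
Median difference of each of the 5 collagen classes (log2 intensity, mesothelial minus liver) as deposited, under 4 scalings and under 2 other ways to choose among probe sets, with the median of all genes as a bar. The beaded class stays above 3 in each, the transmembrane class falls to 0.42 with hybridisation controls, and the fibril-associated class falls to 0.19 with the lowest probe set. The medians of all genes under these last settings are -0.41 with hybridisation controls and 0.27 with the lowest probe set.

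New collagen chains are hydroxylated and glycosylated, folded with chaperones, carried out of the cell in large vesicles, trimmed at their ends and cross-linked. Of 41 measured genes for these steps, 29 were called higher in the sorted cells and 0 lower. Their median was 1.83, which is 1.16 above that of all genes. After median centring 22 were called higher and 0 lower. By share, these are 70.7% and 53.7%, beside 30.0% and 15.8% of all genes.

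Among 13 genes of prolyl and lysyl modification, 11 were called higher. P3h1 and P3h3, genes of the prolyl hydroxylase family that acts on the third carbon, read 617.7 against 39.8 and 488.9 against 48.5, 15.5-fold and 10.1-fold higher. The other probe set of P3h1 differed by 1.80. P4ha2, a catalytic chain of the prolyl hydroxylase that stabilises the helix, was 9.45-fold higher, and Plod3, a lysyl hydroxylase, was the lowest above the floor at 1.81-fold. Among 14 chaperone and export genes, 11 were called higher, led by Fkbp7, a prolyl isomerase, which read 1747 against 158.8, 11-fold higher, its 2 probe sets giving an SD of 1.70. The transcription factor genes Creb3l1 and Creb3l2, which drive secretory pathway genes, were 6.53-fold and 6.43-fold higher. Klhl12, an adaptor for large transport vesicles, read 217.1 against 249.8. Serpinh1, the collagen-specific chaperone, and Ppib, a prolyl isomerase, fell outside the rule for named genes and were added after their values were seen. Ppib read 4022 against 3548, a difference of 0.18 that turned sign after median centring. Serpinh1 read 2338 against 374.8, 6.24-fold higher, and its 2 probe sets gave an SD of 0.07.

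Of 8 genes for trimming chain ends, 2 were called higher, a share below the 30.0% of all genes. The median difference of these 8 genes was 0.64, beside 0.66 for all genes. Pcolce, an enhancer of the trimming protease, read 2711 against 161.8, 16.8-fold higher, and the protease gene Bmp1 read 312.4 against 38.0, 8.22-fold higher, with its 3 probe sets from 1.27 to 3.04. Adamts3, which trims the other end, read 349.4 against 176.8, and Pcolce2 219.1 against 164.9. Of the 8 genes, 3 were at control level on both arrays. Of 6 cross-linking genes, 5 were called higher, with a median of 2.87. Loxl1 and Lox, lysyl oxidases, read 347.9 against 17.4 and 2476 against 142.2, 20.0-fold and 17.4-fold higher. The other probe set of Loxl1 differed by 2.63. Of the other 2 probe sets of Lox, 1 differed by 2.57 and 1 was at control level on both arrays. Pxdn, the enzyme that cross-links type IV collagen, read 2768 against 312.6, 8.86-fold higher, and Tgm2, a transglutaminase, 4.28-fold higher. Of its 6 probe sets, 5 differed by 0.93 to 2.34, and 1 was at control level on both arrays.

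Of 11 collagen receptors, 6 were called higher, 54.5% against 30.0% of all genes, and their median of 1.2 lay 0.53 above that of all genes. Ddr2, a receptor kinase for fibrillar collagen, read 969.5 against 30.8, 31.5-fold higher, and its other probe set differed by 2.30. Ddr1, its epithelial relative, read 1009 against 78.8, 12.8-fold higher. Of its 8 probe sets, 2 were at or near the control level on both arrays, and the lowest of the others differed by 1.43. Mrc2, a receptor that takes up collagen for degradation, was 9.98-fold higher, with its other probe set at 0.93. The integrin gene Itga1 had the smallest difference at or above the floor, 400.2 against 280.7 or 0.51.

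**Figure D5:**
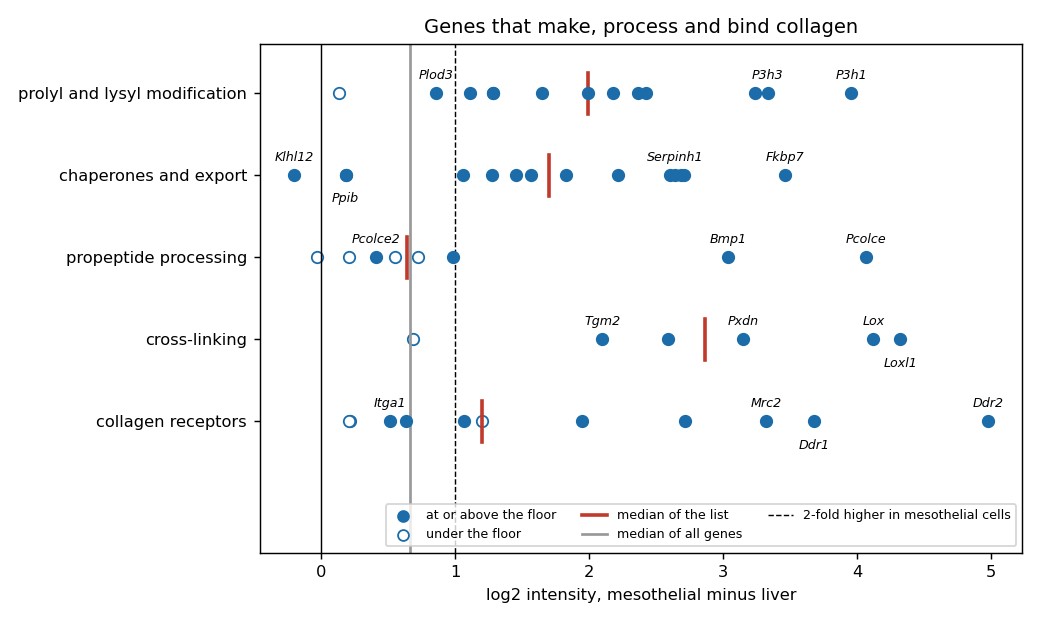
Difference (log2 intensity, mesothelial minus liver) of each measured gene in 4 lists of collagen-making genes and the list of collagen receptors, with genes under the intensity floor open and the list median in red. The cross-linking list has the highest median, 2.87, and the trimming list, at 0.64, lies near the median of all genes, 0.66.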

How the data were processed

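Per the labels' protocols, RNA of FACS-sorted Pdpn+ cells and of liver cells was amplified from 20 ng by the NuGEN Ovation systems and hybridised to 1 array each. The deposited values look like linear intensities, from their range. RMA and Partek are named in the submitters' processing notes, without version or role. RMA values are commonly given as log2, so log2 was taken here first. The arrays have different quantiles, and how they were scaled is not stated. The number of arrays limits the precision, and no depth applies. Amplification can alter transcript ratios.

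Names came from the platform annotation, and the 34945 probe sets with 1 gene symbol, other than 64 controls, were used. The gene IDs of all 42 collagen genes have the same symbol in RefSeq for GRCm38.p6, which gave the promoter sequences. The brightest probe set by mean log2 intensity stood for its gene. A gene was called where its higher value was at or above the median of its array and its fold at least 2. The pooled SD between probe sets rests on 5323 genes with at least 2 probe sets bright on either array, and it holds no variation between embryos or arrays. The class and gene lists, and the collagen genes themselves, were chosen with earlier results of these data known. The rule for other named genes takes up to 3 members of each list with the largest difference and the one furthest the other way, at or above the floor, and Pdpn.

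Alternatives were other scalings (median, 11 reference genes, quantile), setting low values to the control level, dropping _x_at and _s_at probe sets, the median over probe sets, a floor at the 75th percentile or none, 4-fold and other class limits. Centring on 18 hybridisation controls and taking the lowest probe set were added after seeing the data. The steps were checked on simulated data with Python 3.11.15, pandas 2.3.3, numpy 2.4.6 and matplotlib 3.10.9. The simulated differences were placed in bright genes only, with noise smaller than the SD between probe sets. That check therefore covers the working of the steps and not the calls of genes near the floor.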

Additional observations from a re-analysis of the deposited data

How the results depend on the processing

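The count of collagen genes called higher stayed within 1.5 times its 28 under every setting tried, from 19 with a floor at the 75th percentile to 32 with no floor. The count called lower was 0 as deposited and 1 under median, reference gene, quantile and hybridisation control scaling. With quantile normalization the medians were 1.90 over all collagen genes, 1.65 for the basement membrane class and 3.44 for the beaded class. With hybridisation controls, chosen after seeing the data, they were 1.61 over all, 1.58 fibrillar, 1.72 basement membrane, 3.12 beaded, 1.76 fibril-associated and 0.42 transmembrane, against a median of -0.41 over all genes. With the median over probe sets the fibril-associated class was at 1.66. With the lowest probe set of each gene, also chosen after seeing the data, the medians were 1.57 over all collagen genes, 1.79 basement membrane and 0.19 fibril-associated. The median over all genes was then 0.27. Col9a3 and Col12a1 turned to -0.39 and -1.03, from probe sets at or near the control level on both arrays that give no direction. The 29 collagen-making genes called higher became 19 at 4-fold and 19 with hybridisation controls. Over all genes, calls higher in mesothelial and liver cells were 5457 and 460 as deposited, 2867 and 1112 with median centring, 2491 and 1333 with quantile normalization and 1751 and 2146 with hybridisation controls. Calls higher in mesothelial cells over all genes were 3276 with a floor at the 75th percentile, 6584 with no floor, 1915 at 4-fold and 2674 with the lowest probe set. Scalings shift both arrays against each other by construction, and the cause of other changes was not tested. The type XXVIII chain was not measured by a probe set used here, so adding it to the beaded class was not run, and adding the type XV and XVIII chains to the basement membrane class gave 3.42. No paired analysis was possible because each group has 1 array, and leaving out an array leaves no comparison. A movement was judged against the 0.70 SD between probe sets, since no replicate exists.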

Other observations

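Proteins that carry a collagen-like domain but are not named as collagens were also read. Of 22 such genes measured, 13 were called higher and 1 lower in the sorted cells, and their median of 1.57 lay 0.90 above that of all genes, where 30.0% of all genes were called higher. Scara3, a scavenger receptor family gene, read 469.1 against 13.7, 34.2-fold higher, from 1 probe set. The collectin gene Colec12 read 185.6 against 8.5, at the control level in liver cells, and was at least 17.7-fold higher, also from 1 probe set. Scara5, a ferritin receptor gene, was at least 10.2-fold higher, while its other probe set was at control level on both arrays. The exception was Fcnb, a ficolin of neutrophil precursors, at 16.4 against 72.4, 4.41-fold higher in liver cells.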
